A study of Mus musculus with 2 samples.

Results

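The 7 genes described here make, cut, bind or sense hyaluronan. They are the hyaluronan synthases Has1, Has2 and Has3, the hyaluronidases Hyal1 and Hyal2, the matrix proteoglycan versican (Vcan) and the receptor Cd44. They were found by symbol among 31053 genes, and all 7 had at least 1 count. Transcripts were counted by droplet single-cell RNA sequencing (10x Genomics, 3′ chemistry) in the mouse cervix. All animals of both groups were C57BL6/129, 7 to 8 weeks old and ovariectomised, which removes the ovaries as a source of sex steroids, and had 2 weeks to recover. The control mice were left untreated. In the progesterone group, corn oil with E2 (estradiol) was injected under the skin for 2 days at a daily 100 µg. A 25 mg, 21-day pellet of progesterone, releasing about 1 mg daily, followed. The experiment is given as 15 days for both groups. Each group is 1 library of 9 pooled mice, so the comparison has no replicates and no test. The label progesterone stands for estradiol, oil injections and pellet together, whose shares cannot be told apart.

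Hyaluronan is a long sugar polymer without a protein core. The synthases sit in the plasma membrane and join 2 nucleotide sugars, UDP-glucuronic acid and UDP-N-acetylglucosamine, while extruding the chain. Hyal2 is held on the cell surface by a lipid anchor and makes the first cuts, and Hyal1 continues in lysosomes. Versican binds hyaluronan and helps to swell the matrix, and Cd44 is the main cell surface receptor. In the cervix hyaluronan is known for its accumulation in late pregnancy, when the tissue softens.

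The control library gave 4579 analysed cells (median 3733 unique molecular identifiers, UMIs, per cell) and the progesterone library 8541 (median 4151). Clustering, which did not use the 7 genes, gave 27 clusters. Clusters took a name ending in "-like" from marker genes, and 8 stayed unnamed. Levels are counts per 1000000 UMIs of the class (CPM), with 95% exact Poisson intervals in brackets. Ratios are progesterone over control CPM with exact conditional binomial intervals, and all intervals cover counting error only. A ratio is called higher or lower when it is at least 2-fold with its interval away from 1 and the gene has at least 20 UMIs in the class over both libraries. The libraries share 12 cell barcodes among the analysed cells.

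Summed over all analysed cells, 4 control and 6 progesterone UMIs came from Has1, 120 and 734 from Has2, and 191 and 481 from Has3. The hyaluronidases gave 301 and 720 UMIs for Hyal1 and 279 and 784 for Hyal2. Vcan gave 28 and 56 UMIs, and Cd44 gave 2313 and 3040. Across whole libraries the ratio was 3.23 [2.66 to 3.95] for Has2 and 0.694 [0.657 to 0.733] for Cd44. Those 2 ratios mix the level within cells with the make-up of each library, in which luminal-like cells were 4.70% of control and 22.4% of progesterone cells. These shares depend on the naming rule. They leave out the unnamed cluster 7, which scored best as luminal and held 15.0% of control and 0.445% of progesterone cells. Cells gated on Krt8 and Krt18 were 8.34% and 26.9%.

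In the mouse build GRCm38, Has1 lies on chr17:17843323-17855205, Has2 on chr15:56665627-56694539 and Has3 on chr8:106870242-106884566. Hyal2 (chr9:107567945-107572779) and Hyal1 (chr9:107576927-107581710) are neighbours on the plus strand, with 4148 bases between them. Vcan lies on chr13:89655312-89742509 and Cd44 on chr2:102811141-102901665, both on the minus strand. Hyal1 shares its strand and part of its span with Naa80 and Hyal3, so its counts are uncertain where reads fall in shared sequence. On the other strand Chtf8 overlaps Has3. How the counting treated strand is not given in the sources used here.

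The bases before the start of 3 genes are shown because the 2 libraries differ in steroid hormones, and they show the part of a 250-base window ahead of any annotated exon. The window was searched on both strands for the half-sites bound by the progesterone receptor (AGAACA or TGTTCT) and the estrogen receptor (AGGTCA or TGACCT), and for the GC box (GGGCGG or CCGCCC). Capitals mark a match, sequences read 5′ to 3′ toward the gene, and they come from RefSeq (GRCm38.p6). They cover chr9:107576700-107576926 on the plus strand for Hyal1, and on the minus strand chr13:89742513-89742762 for Vcan and chr2:102901666-102901915 for Cd44.
Hyal1: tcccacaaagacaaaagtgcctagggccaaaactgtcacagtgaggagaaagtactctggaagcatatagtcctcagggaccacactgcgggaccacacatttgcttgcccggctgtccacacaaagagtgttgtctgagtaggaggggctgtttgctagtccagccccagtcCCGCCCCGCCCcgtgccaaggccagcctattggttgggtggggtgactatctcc
Vcan: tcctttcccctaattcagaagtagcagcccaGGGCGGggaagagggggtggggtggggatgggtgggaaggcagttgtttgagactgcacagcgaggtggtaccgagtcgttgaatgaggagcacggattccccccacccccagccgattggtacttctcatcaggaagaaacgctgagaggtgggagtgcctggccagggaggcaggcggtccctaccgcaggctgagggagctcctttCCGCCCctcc
Cd44: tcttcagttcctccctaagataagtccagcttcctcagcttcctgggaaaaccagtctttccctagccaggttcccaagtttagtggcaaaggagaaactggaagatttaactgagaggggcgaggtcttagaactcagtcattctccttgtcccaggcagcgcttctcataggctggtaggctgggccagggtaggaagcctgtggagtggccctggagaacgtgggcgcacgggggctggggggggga
The windows of Hyal1 and Vcan each held 2 GC boxes, those of Hyal1 sharing bases, and the Cd44 window held none of the motifs. Of 32851 promoters in the table, 32.7% held a GC box, 16.1% the progesterone receptor half-site and 14.0% the estrogen receptor half-site. The table has 5 of the 7 genes, and none of these 5 windows held the progesterone receptor half-site. The Has1 window held 1 estrogen receptor half-site and the Hyal2 window 1 GC box. A match is a match of letters only.

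Has1, the synthase with the fewest counts, was at the edge of detection. All 10 of its UMIs were single UMIs in single cells. Of them 7 were in basal squamous-like cells, 3 in the control and 4 in the progesterone library, which corresponds to 0.508 CPM [0.105 to 1.49] and 0.269 CPM [0.0734 to 0.689]. Luminal-like, macrophage-like and neutrophil-like cells had no Has1 UMI in either library.

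Has2, the synthase known for the longest chains, had its highest level in luminal-like cells among the classes compared. Their name rests on markers of the columnar lining, among them the keratins Krt8 and Krt18. Luminal markers summed to 14562 CPM in the control and 7833 CPM in the progesterone luminal-like cells. Basal squamous markers summed to 8184 CPM and 1409 CPM in the same cells. Luminal-like cells had 54.0 CPM [38.6 to 73.6] from 40 UMIs in the control library and 71.1 CPM [65.8 to 76.8] from 663 UMIs in the progesterone library. Basal squamous-like cells, the lower layer of the stratified epithelium, had 0 UMIs in 1310 control cells and 8 UMIs in 3116 progesterone cells. Has2 was therefore at least 106-fold higher in luminal-like than in basal cells of the control library, taking 3 counts as the floor for the basal class (the counting interval of the ratio starts at 82.5), and 132-fold [66.7 to 307] higher in the progesterone library. In the suprabasal squamous-like cells the counts were 0 and 2, and macrophage-like cells had no Has2 UMI in either library.

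Within luminal-like cells the Has2 ratio between the libraries was 1.32 [0.957 to 1.86], an interval that includes 1. It was between 1.28 and 1.51 in 7 of 9 alternatives, and the interval lay above 1 at the finer clustering (1.51 [1.21 to 1.90]), with the other scaling (1.43 [1.04 to 2.02]) and for cells gated on Krt8 and Krt18 (1.37 [1.04 to 1.84]). The ratio was 1.97 with the libraries clustered apart and 3.22 with the unnamed cluster 7 counted as luminal. The luminal-like cells of the libraries came from different clusters, which bears on every luminal ratio here. Cluster 10 gave 193 of the 215 control cells. Its top genes hold Krt8 beside Slurp1, Krt78 and Trex2, which are known from squamous cells. Its Krt5 level over both libraries was 2622 CPM, against 746 CPM in cluster 21 and 449 CPM in cluster 22. The progesterone cells came mostly from cluster 21 (947 cells, led by Agr2, Muc5b and Spdef, genes of mucus-secreting cells), cluster 22 (913 cells, led by Clca1, Gp2, Pigr and Olfm4) and cluster 25 (39 cells, led by Prap1), with 14 in cluster 10.

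The secretory clusters of the progesterone library differed in Has2. Cluster 21 had 103 CPM [94.1 to 113] from 480 UMIs and cluster 22 had 43.0 CPM [37.0 to 49.7] from 183 UMIs, a ratio of 2.40 [2.02 to 2.86]. Cluster 25 had 0 UMIs in 39 cells, with an upper limit of 10.3 CPM. Cluster 10 in the control library lay at 57.5 CPM [40.7 to 79.0], between clusters 21 and 22, and its interval overlaps that of cluster 22. So the Muc5b-led cells carried the most Has2 per UMI, and the Prap1-led cells gave none.

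Most control Has2 UMIs lay outside the named luminal clusters. Cluster 7, which stayed unnamed because its luminal score did not lead clearly, held 70 of 120 control Has2 UMIs at 16.4 CPM [12.7 to 20.7], against 33.3% in luminal-like cells. Its top genes include Sprr2f, Spink12, Ltf, Lcn2 and Muc4. In its 38 progesterone cells Has2 was at 52.9 CPM [32.3 to 81.7] from 20 UMIs. Cornified-like cells, named by markers of the outermost squamous layer, had 17.2 CPM [6.91 to 35.4] from 7 UMIs in 62 control cells. Their 16 progesterone cells had 80.9 CPM [47.9 to 128] from 18 UMIs. Luminal epithelium was the second-scoring name of this cluster. In its control cells luminal markers summed to 12908 CPM and basal squamous markers to 839.6 CPM. In the progesterone library the luminal-like cells held 90.3% of Has2 UMIs.

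**Figure D1:**
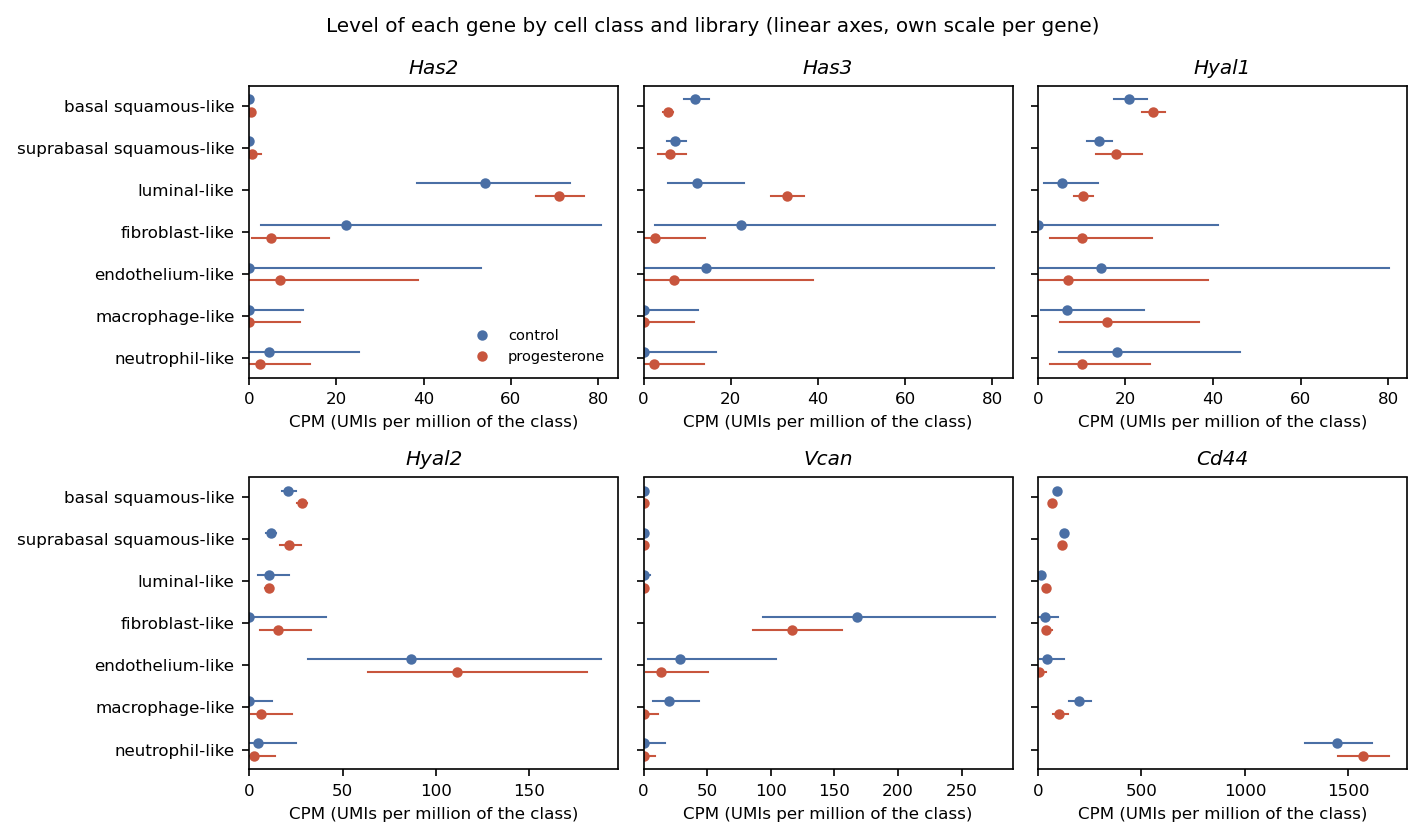
Level of 6 genes by cell class and library in CPM, each panel on its own linear axis (points) with the 95% counting interval (lines). Has2 stands out in luminal-like cells (54.0 and 71.1 CPM), Vcan in fibroblast-like cells (167 and 117 CPM) and Cd44 in neutrophil-like cells (1446 and 1571 CPM).

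Has2 counts differed between single luminal-like cells. A Has2 UMI was seen in 25 of 215 control and 369 of 1913 progesterone luminal-like cells, and 21 of the 369 held 5 or more, up to 10. The highest 1% of progesterone luminal-like cells held 18.1% of the Has2 UMIs of the class. For Hyal1 this share was 25.0%, for Hyal2 21.2%, for Has3 13.7% and for Cd44 13.6%, with at most 3 UMIs in a cell. Such a share also depends on how few UMIs a gene has, so it does not set Has2 apart. After thinning each cell to 2000 UMIs the share with a Has2 UMI was 7.48% of 147 control cells and 10.8% of 1624 progesterone cells, with 68 and 289 shallower cells left out; unthinned, the shares were 11.6% and 19.3%. In basal squamous-like cells, taken as the background, the thinned shares were 0% of 911 control cells (which allows a share of up to 0.329%) and 0.0702% of 2849 progesterone cells. Median depths were 2680 and 4763 UMIs in luminal-like and 3875 and 4432 in basal cells.

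Has3, a synthase known for shorter chains, was spread over the epithelium and differed in opposite directions between the libraries in basal and luminal cells. Basal squamous-like cells had 11.9 CPM [9.25 to 15.0] from 70 control UMIs and 5.52 CPM [4.39 to 6.85] from 82 progesterone UMIs, a ratio of 0.465 [0.334 to 0.649]. Luminal-like cells had 12.2 CPM [5.56 to 23.1] from 9 UMIs and 32.8 CPM [29.3 to 36.7] from 306 UMIs, a ratio of 2.70 [1.41 to 5.97]. The difference between these 2 ratios was not tested. The basal ratio passed the call as lower and the luminal ratio as higher.

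Of the 4 genes with enough UMIs in basal cells, Has3 was the 1 called lower and none was called higher, where 6.63% of 11912 genes were called lower and 8.03% higher. Of the 5 in luminal-like cells, Has3 and Cd44 were called higher and none lower, where 8.06% of 11112 genes were called higher and 5.53% lower. In suprabasal cells 0 of 4 genes was called, where 7.84% of genes were called higher and 4.54% lower. Without doublet removal Has3 and Hyal2 passed the call there as higher.

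The luminal Has3 ratio was at least 2-fold in all 9 alternatives, from 2.18 to 4.19, and its interval lay above 1 in the 8 that give one. The basal ratio kept its direction in all 8, from 0.335 to 0.602, but it fell short of 2-fold with another scaling (0.534 [0.383 to 0.745]) and as a mean over cells (0.602). Basal cells too came from different clusters. Cluster 2 gave 589 of 1310 control cells and cluster 3 gave 2056 of 3116 progesterone cells. Within cluster 2, Has3 lay at 15.9 CPM [11.7 to 21.0] in control cells and at 3.76 CPM [1.03 to 9.63] in progesterone cells, a ratio of 0.237 [0.0622 to 0.647] from 49 and 4 UMIs (in this cluster 4.54% of genes were called lower and 6.49% higher). In cluster 3 the counts were 0 in 198 control cells, with an upper limit of 9.09 CPM, and 57 in 2056 progesterone cells, or 5.96 CPM [4.51 to 7.72].

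Clusters 21 and 22 did not separate by Has3 as they did by Has2. Cluster 21 had 36.3 CPM [31.1 to 42.2] and cluster 22 had 32.2 CPM [27.0 to 38.0], a ratio of 1.13 [0.896 to 1.43]. Cluster 25 again had 0 UMIs. In the progesterone library Has3 was 5.95-fold [4.65 to 7.69] higher in luminal-like than in basal cells, and in the control library the same ratio was 1.02 [0.450 to 2.06]. Suprabasal cells had 7.31 CPM of Has3 without and 5.96 CPM with progesterone, and the ratio was 0.815 [0.432 to 1.46]. It turned to 3.84 [1.76 to 9.96] without doublet removal and 1.21 [0.749 to 1.97] with the stricter filter, and was 0.529 [0.276 to 0.965] without cluster 9. The suprabasal cells of the libraries also came from different clusters, which bears on every suprabasal ratio here. Cluster 0 gave 100 of 1099 control and 312 of 348 progesterone cells. Among control suprabasal clusters, cluster 9 had 2.86 CPM [1.31 to 5.42] of Has3, and cluster 6 was 4.37-fold [2.07 to 10.3] higher. Cluster 9 was led by the stress keratins Krt16 and Krt6b and was absent from the progesterone library.

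**Figure D2:**
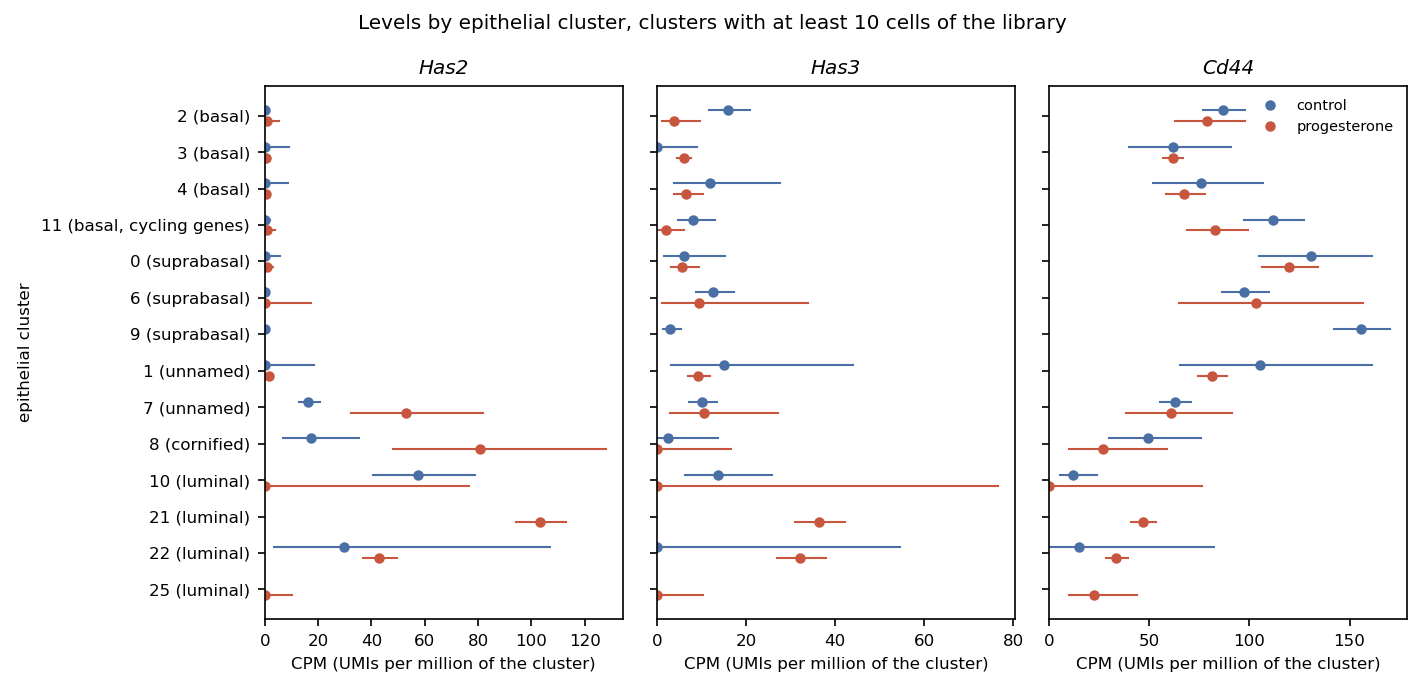
Has2, Has3 and Cd44 by epithelial cluster in CPM (points, with 95% counting intervals as lines), for clusters with at least 10 cells of a library. Has2 is highest in cluster 21 (103 CPM), Has3 has overlapping intervals in clusters 21 and 22 (36.3 and 32.2 CPM), and Cd44 is highest in cluster 9 (156 CPM) among the clusters drawn, which leave out the unnamed clusters 16 (181 CPM) and 17 (264 CPM). For Cd44 the interval of cluster 9 overlaps that of control cluster 0 (131 CPM).

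Both synthases could be read in the same cells. In the progesterone luminal-like cells 70 held UMIs of both Has2 and Has3. Has3 was found in 19.0% of the cells with Has2 and in 13.3% of those without it, where the median depths were 6423 and 4421 UMIs. The deeper cells are thus also the ones with Has2, and the part of depth in this co-detection was not tested.

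The hyaluronidases Hyal1 and Hyal2 were read throughout the squamous epithelium. In basal squamous-like cells Hyal1 lay at 20.9 CPM [17.3 to 24.9] without and 26.3 CPM [23.7 to 29.0] with progesterone, which gives 1.26 [1.02 to 1.56]. For Hyal2 the basal levels were 21.0 CPM [17.5 to 25.1] and 28.3 CPM [25.7 to 31.2], a ratio of 1.35 [1.10 to 1.66]. Neither reached 2-fold. Suprabasal cells had 11.6 CPM [9.20 to 14.5] and 21.6 CPM [16.4 to 27.9] of Hyal2, a ratio of 1.86 [1.30 to 2.64], and a Hyal1 ratio of 1.29 [0.889 to 1.84]. The Hyal2 ratio passed 2-fold without doublet removal (2.33 [1.58 to 3.54]), with the other scaling (2.02 [1.42 to 2.88]), without the 1% of cells with the most UMIs (2.00 [1.36 to 2.93]) and as a mean over cells (2.16). Over all genes of that class the median ratio was 0.15 on the log2 scale.

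Within each library Hyal1 was higher in basal than in luminal-like cells, by 3.86-fold [1.47 to 14.4] in the control (123 and 4 UMIs) and 2.55-fold [2.03 to 3.22] in the progesterone library. Luminal-like cells had 5.40 CPM of Hyal1 without and 10.3 CPM with progesterone, and the ratio was 1.91 [0.721 to 7.14]. For Hyal2 the basal over luminal ratio was 1.95 [0.957 to 4.61] and 2.67 [2.14 to 3.35]. Its luminal levels were 10.8 CPM (8 UMIs) and 10.6 CPM (99 UMIs), a ratio of 0.983 [0.480 to 2.34]. The small cluster 25, without Has2 and Has3 UMIs, had the highest luminal level of Hyal1, with 39.1 CPM from 14 UMIs, which was 3.72-fold [1.89 to 6.84] above cluster 21 and 5.05-fold [2.50 to 9.70] above cluster 22. Its Hyal2 level of 25.2 CPM rests on 9 UMIs. It was 3.06-fold [1.29 to 6.50] above cluster 22 and 2.17-fold [0.941 to 4.43] above cluster 21, so the second interval includes 1.

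Hyal2 was highest in endothelium-like cells, the lining of vessels. There 6 UMIs in 45 control cells gave 86.5 CPM [31.7 to 188] and 16 UMIs in 62 progesterone cells gave 112 CPM [63.7 to 181]. Those levels were 4.11-fold [1.48 to 9.21] and 3.94-fold [2.23 to 6.47] above the basal cells of the same library. The same cells held 1 Hyal1 UMI in each library. In them blood endothelium markers summed to 2392 CPM in the control and 3574 CPM in the progesterone library. Lymphatic endothelium markers summed to 1888 and 2787 CPM, and basal squamous markers to 9871 and 1303 CPM. The part of other cells in the Hyal2 levels was not tested. Macrophage-like cells held 0 and 2 UMIs of Hyal2, and neutrophil-like cells 1 in each library. The cycling basal cluster 11, led by Top2a and Mki67, had less Hyal1 than cluster 3 in both libraries, with ratios of cluster 3 over cluster 11 of 2.26 [1.08 to 4.52] and 2.27 [1.41 to 3.89].

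Versican was read mainly in fibroblast-like cells, which held 15 of 28 control and 46 of 56 progesterone UMIs and are few in these suspensions. These cells, with collagens, Dcn and Lum among their top genes, had 15 Vcan UMIs in 77 control cells, or 167 CPM [93.7 to 276], and 46 UMIs in 115 progesterone cells, or 117 CPM [85.7 to 156]. The ratio was 0.699 [0.383 to 1.35], which spans 1. For this class 2.76% of 3220 genes were called higher and 5.28% lower, and Vcan, the 1 gene of the 7 with enough UMIs, was not called. Fibroblast-like cells were shallow, with medians of 962 and 2670 UMIs. In the progesterone library cluster 23 had 110 CPM and cluster 26, with 16 cells and with Igf1 and Hsd11b2 among its top genes, had 136 CPM, a ratio of 1.24 [0.623 to 2.37].

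Outside fibroblast-like cells Vcan was read in few cells. Cluster 20, unnamed and with Lyz2, Ly6c2, Plac8 and Ccr2 among its top genes, held 5 UMIs in 2 of 46 control cells and 3 UMIs in 3 of 46 progesterone cells. Macrophage-like cells held 6 UMIs in 2 control cells and 0 in 111 progesterone cells. Endothelium-like cells held 2 UMIs in each library. Basal, suprabasal and luminal-like cells together held 4 Vcan UMIs, all in the progesterone library, where the basal level of 2 UMIs is 0.135 CPM [0.0163 to 0.486].

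Cd44 had the most counts of the 7 genes and its highest level in neutrophil-like cells. Their 347 control cells held 320 UMIs, or 1446 CPM [1292 to 1613], and their 444 progesterone cells 630 UMIs, or 1571 CPM [1450 to 1698], with a ratio of 1.09 [0.948 to 1.25]. In neutrophils 4.87% of 3101 genes were called higher and 4.48% lower, and Cd44 was not called. The neutrophil level was 11.3-fold [9.89 to 12.8] above that of suprabasal cells in the control and 13.3-fold [11.6 to 15.2] in the progesterone library. Neutrophil-like cells are shallow, with medians of 581 and 776 UMIs. Thinned to 500 UMIs, 50.4% of control and 53.8% of progesterone neutrophil-like cells had a Cd44 UMI, against 3.97% and 3.63% of basal cells and 0.930% and 1.52% of luminal-like cells; no cell of these classes was left out, and the unthinned neutrophil shares were 58.8% and 69.1%.

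Cluster 20 lay at 408 CPM [264 to 602] in control cells and at 325 CPM [235 to 438] in progesterone cells. It was 2.06-fold [1.24 to 3.34] and 3.13-fold [1.94 to 5.08] above the macrophage-like cells of the same library. Macrophage-like cells had 198 CPM [151 to 255] from 59 UMIs and 104 CPM [71.5 to 146] from 33 UMIs. Their ratio of 0.525 [0.332 to 0.817] did not reach 2-fold, in a class where 4.03% of 4189 genes were called higher and 6.23% lower, and it was 0.866 with the libraries clustered apart. Neutrophil markers summed to 1409 CPM in the control and 390.5 CPM in the progesterone macrophage-like cells. They moved in the direction of Cd44, and their part in the ratio was not tested.

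In the squamous epithelium Cd44 was higher in suprabasal than in basal cells, and lower in cornified-like cells, at 49.1 CPM [29.99 to 75.8] and 27.0 CPM [9.89 to 58.7]. Suprabasal cells lay at 128 CPM [120 to 137] without and 118 CPM [106 to 132] with progesterone, a ratio of 0.923 [0.809 to 1.05], which turned to 1.14 without cluster 9 and was 0.631 without doublet removal. They were 1.39-fold [1.24 to 1.55] and 1.79-fold [1.57 to 2.04] above basal cells, which had 92.5 CPM [84.9 to 101] and 66.1 CPM [62.0 to 70.4]. The basal ratio between libraries was 0.714 [0.643 to 0.794], and it was 1.00 [0.671 to 1.56] within cluster 3, 0.911 [0.705 to 1.17] within cluster 2 and 0.743 [0.590 to 0.931] within the cycling cluster 11. Cluster 9 had 156 CPM [142 to 170], which was 1.60-fold [1.38 to 1.86] above cluster 6 of the control library. Its ratio over control cluster 0 (131 CPM) was 1.19 [0.947 to 1.515], an interval that includes 1. Neutrophil markers summed to 146 CPM in control and 24.8 CPM in progesterone basal cells, and their part in the Cd44 ratio was not tested. This set includes S100a8 and S100a9 and summed to 34984 CPM in cornified-like control cells. In epithelial cells the sum therefore does not by itself show neutrophil RNA.

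Luminal-like cells had the least Cd44 of the epithelial classes in the control library, with 13.5 CPM [6.48 to 24.8] from 10 UMIs, and 39.5 CPM [35.6 to 43.7] from 368 UMIs in the progesterone library. The ratio of 2.93 [1.57 to 6.15] was called higher, but it rests on how luminal cells were delimited. It was 1.51 at a finer clustering, 1.05 with the libraries clustered apart and 1.10 for cells gated on Krt8 and Krt18, and it turned to 0.726 with cluster 7 counted as luminal. Cluster 7 had 62.8 CPM [55.5 to 70.8] in its 687 control cells. Within the progesterone library cluster 21 was 1.39-fold [1.12 to 1.73] above cluster 22. Neutrophil markers summed to 440 CPM in the control and 34.2 CPM in the progesterone luminal-like cells, and their part in the Cd44 ratio was not tested.

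**Figure D3:**
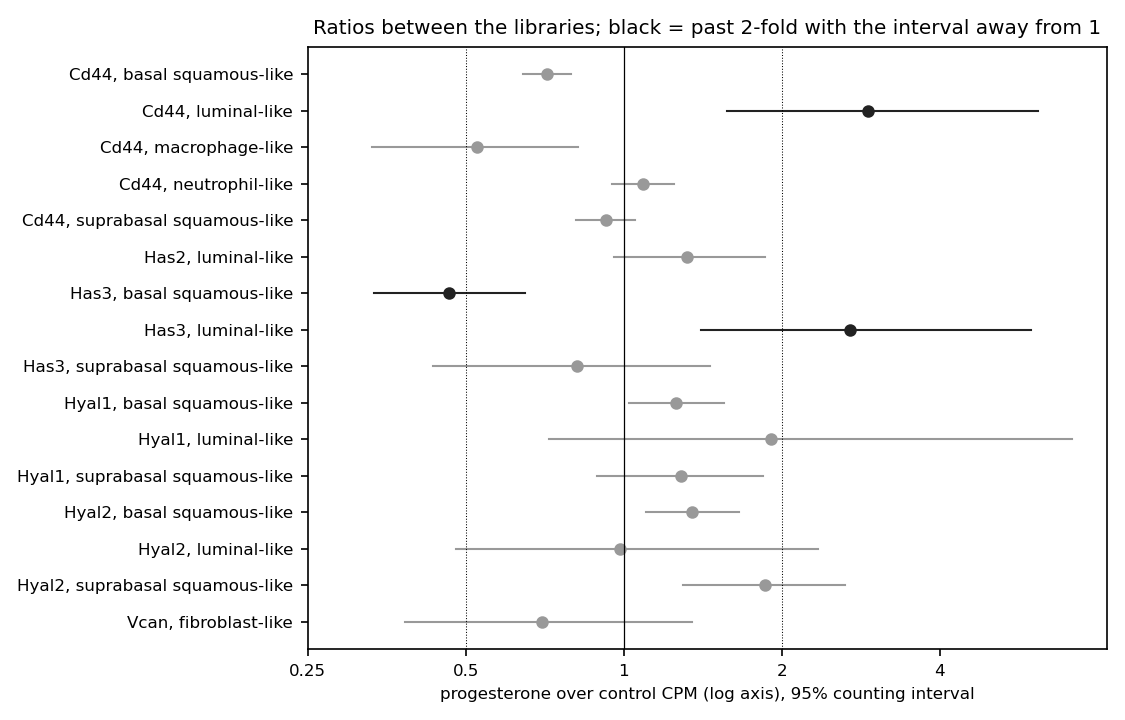
Ratios of progesterone over control CPM on a log axis for each gene and class with at least 20 UMIs, with 95% counting intervals as lines. The 3 black points are past 2-fold with the interval away from 1 (dotted lines mark 2-fold): Has3 in basal (0.465) and luminal-like cells (2.70), and Cd44 in luminal-like cells (2.93).

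The wider pathway was read from a list of 57 further genes in the files, of which 12 had no UMI in the analysed cells. In luminal-like cells 5 of 24 list genes with enough UMIs were called higher and 1 lower, where 8.06% and 5.53% of all genes were. The list median was 0.17 on the log2 scale against 0.06 over all genes. The counts were 7 and 4 at the finer clustering, and also with the libraries clustered apart. Those higher include 3 enzymes of the path to UDP-N-acetylglucosamine, 1 of the 2 sugars that Has2 and Has3 join, while Pgm3 (0.818 [0.550 to 1.26]) and Gpi1 (0.992 [0.819 to 1.21]) of the same path were not called; these were chosen after their values were seen. Gfpt1, which commits glucose to that path, was at 131 and 317 CPM, a ratio of 2.42 [1.98 to 2.99]. Uap1, which forms the nucleotide sugar, was at 39.2 and 106 CPM, a ratio of 2.71 [1.88 to 4.07]. Gnpnat1, which acetylates the amino sugar, had a ratio of 2.04 [1.15 to 3.99].

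Ugdh, which makes the other nucleotide sugar, UDP-glucuronic acid, was lower in luminal-like cells, at 14.9 CPM from 11 UMIs and 6.44 CPM from 60 UMIs, a ratio of 0.434 [0.226 to 0.914]. Hexa, a lysosomal enzyme that helps to trim the fragments left by hyaluronidases, was higher, at 28.4 and 69.3 CPM, a ratio of 2.45 [1.59 to 3.98]. Adamts9, a protease that cuts versican, was at least 2.17-fold higher against a floor of 3 control counts (0 UMIs in the control and 82 in the progesterone library; the counting interval starts at 1.73). The precursor enzymes also feed other glycans, including those of mucins.

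In basal cells 1 of 26 list genes was called higher and 2 lower, where 8.03% and 6.63% of all genes were (median -0.27 against 0.02). In suprabasal cells 2 of 23 were called higher and 3 lower, where 7.84% and 4.54% of all genes were (median 0.18 against 0.15). The suprabasal counts were 7 and 1 without doublet removal and 1 and 5 with the libraries clustered apart. Tlr4, which can sense hyaluronan fragments, was called higher in both, from 9 and 64 UMIs in basal and 16 and 18 UMIs in suprabasal cells. Gfpt1 was higher in suprabasal cells (2.28 [1.63 to 3.17]). Hmmr, a hyaluronan-binding protein that also acts on the mitotic spindle, was lower in basal cells (0.375 [0.320 to 0.440]). The cycling cluster 11 gave 255 of 1310 control and 232 of 3116 progesterone basal cells, and its part in that ratio was not tested. In suprabasal cells Hmmr had 24 and 0 UMIs, at least 3.21-fold lower against a floor of 3 counts (the counting interval of the ratio ends at 0.414). Adamts1 was lower in suprabasal cells, from 65 and 2 UMIs (0.0768 [0.00910 to 0.289]).

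Stab1, a scavenger receptor for hyaluronan known from macrophages and vessel lining, was the list gene furthest apart between the libraries. Basal cells had 58 control and 3 progesterone UMIs, 48.7-fold [15.9 to 243] lower with progesterone, and suprabasal cells 136 and 2 UMIs, 27.3-fold [7.40 to 227] lower. Of the control UMIs 121 lay in 87 of the 393 cells of cluster 9, at 38.4 CPM [31.9 to 45.9], and 35 in cluster 2. Cluster 9 is absent from the progesterone library. Cluster 0, the source of 312 of the 348 progesterone suprabasal cells, had 10.5 CPM of Stab1 from 7 control UMIs. Its progesterone level was 0.404 CPM from 1 UMI. Macrophage-like cells had 154 CPM and endothelium-like cells 317 CPM in the control library. In cluster 9 the 6 macrophage markers summed to 13 UMIs, and 2 of the 87 cells with Stab1 held any of them. Stab1 overlaps Nt5dc2 on the other strand. Nt5dc2 had 405 UMIs in cluster 9 and in cluster 2 was at 111 CPM in control cells and at 17.9 CPM in progesterone cells. How the counting treated strand is not given, and the part of this overlap in the Stab1 counts was not tested. Endothelium-like control cells held 22 Stab1 and 0 Nt5dc2 UMIs, and the progesterone cells of cluster 11 held 0 and 44.

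The remaining classes had 13 or 14 list genes with enough UMIs, of which 0 or 1 was called higher and 1 or 2 lower. Over all genes 2.76% were called higher and 5.28% lower in fibroblast-like, 4.03% and 6.23% in macrophage-like and 4.87% and 4.48% in neutrophil-like cells. In fibroblast-like cells Gfpt2 was higher (2 and 37 UMIs, 4.22 [1.09 to 36.1]) and Ezr, which links Cd44 to actin, was lower (9 and 13 UMIs, 0.329 [0.130 to 0.873]). No list gene was called lower there with the stricter filter, without doublet removal, at the finer clustering or with the libraries clustered apart, and none higher with the stricter filter. In macrophage-like cells no list gene was called higher, and the Cd44 ligand Spp1 (856 and 104 CPM, 0.122 [0.0818 to 0.175]) and Mmp14, a protease that sheds Cd44, were lower. In neutrophil-like cells Tnfaip6, which loads proteins onto hyaluronan, was lower (13 and 9 UMIs, 0.382 [0.144 to 0.966]). The list medians there were -0.28, -0.49 and 0.02, against -0.16, -0.09 and 0.01 over all genes.

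**Figure D4:**
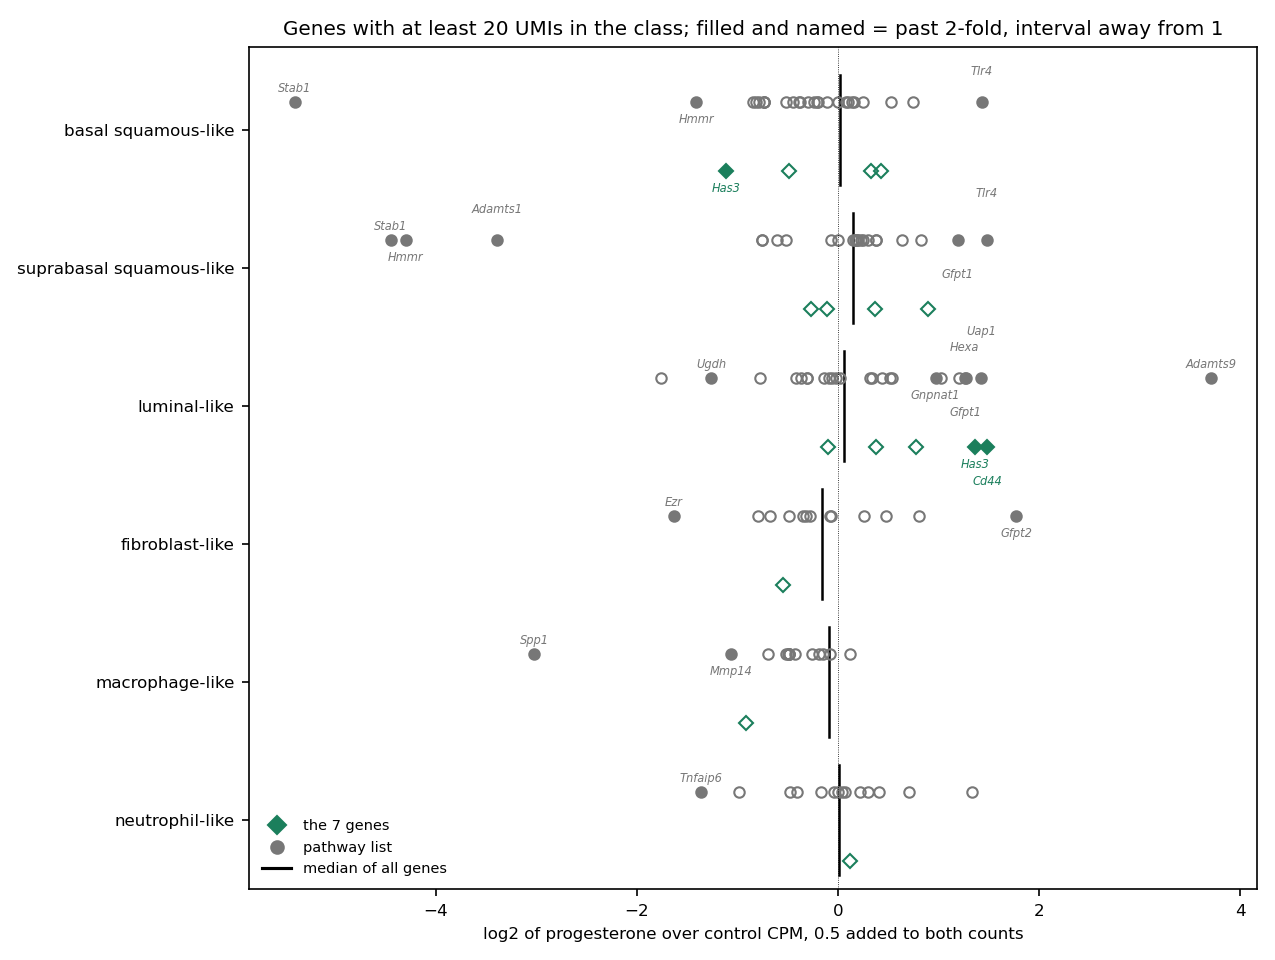
Log2 ratio of progesterone over control CPM for the 7 genes (diamonds) and the pathway list (circles) by class, for genes with at least 20 UMIs, with the median of all genes as a black bar; Adamts9 in luminal-like and Hmmr in suprabasal cells rest on a count of 0 in 1 library, so their places depend on the 0.5 added to both counts. Filled and named points are past 2-fold with the interval away from 1, and 5 list genes are called on the higher side in luminal-like cells.

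Across 15 units, each a class in 1 library with at least 50 cells, genes were ranked by their Pearson correlation with each member in log2(CPM + 10), among 10622 genes. The units share 2 libraries and differ in depth, so the values describe likeness only. Tspan8 (0.955), Slc44a4 (0.930) and Pkp2 (0.920) were most like Has2. Yipf2 (0.885), Stk39 (0.885) and Lrig1 (0.880) were most like Has3, and Kif13a (0.811), Slc39a6 (0.794) and Cldnd1 (0.775) most like Hyal1. Acer2 (0.934), Gimap9 (0.926) and Ttc23 (0.919) were most like Hyal2, and Ltb4r1 (0.968), a leukotriene receptor, Runx2 (0.941) and Marcksl1 (0.940) most like Cd44. Among the members the highest correlation was that of Has2 and Has3, at 0.69, and Has2 and Cd44 were at -0.44. In the control fibroblast-like unit Has2 and Has3 each stood at 22.3 CPM from 2 UMIs, under the floor of 3 counts. The part of such low counts in the correlations was not tested.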

How the data were processed

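Per the file headers and the deposited values, the authors deposited raw counts of UMIs for each gene and barcode, and every deposited barcode has at least 500 UMIs. Cell Ranger 3.0.2 and build mm10 are named in the submitters' processing notes; the annotation is not given in the sources used here. The control library deposited 5368 barcodes with 21658684 UMIs and the progesterone library 10853 with 44811069. Positions come from GENCODE M21, which holds 30934 of the 31053 identifiers.

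Barcodes with under 200 genes or over 20% mitochondrial UMIs were dropped. The highest Scrublet scores, at 0.8% per 1000 cells, were removed as doublets (181 and 680). Cells were clustered with scanpy 1.11.5 (2000 variable genes, 30 components, 15 neighbours, Leiden resolution 1), leaving out mitochondrial genes, the 7 genes and the pathway list. A name needed a marker score (mean log2 of CPM plus 10 over the median cluster) of at least 0.75, a lead of 0.5 and 3 detected markers. Non-epithelial clusters at 2000 CPM of Krt5 or more got no name. Comparisons needed 50 cells of a class in both libraries. A fold against 0 takes 3 counts as the floor of that class and library. Log2 ratios add 0.5 to both counts.

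Named were all 7 genes in the compared classes, and in smaller classes with at least 10 UMIs (other counts are given for contrast), the list genes called in a class (at most 8), and up to 3 genes most like each member with at least 200 UMIs. The members, lists and naming thresholds were chosen with earlier results of these data known. The call rule and intervals were tested on Poisson counts simulated from class rates. Those counts hold only the counting error that the intervals assume, so this test says nothing on variation between cells, mice or libraries. Alternatives changed the cell filter (500 genes, 10% mitochondrial), doublets, clustering (Leiden resolution 2, or libraries apart), scaling, weighting of cells and thinning depth. One gene of the pathway list is not reported here and is in no list count. Only 1 library per group exists here, so no test was run.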

Additional observations from a re-analysis of the deposited data

Results flagged for a closer look

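Has3 was called in opposite directions in 2 cell classes. The ratio of progesterone over control was 0.465 in basal squamous-like cells and 2.70 in luminal-like cells, and the difference between them was not tested. The control luminal value rests on 9 UMIs, and in both classes most cells of the 2 libraries came from different clusters.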

How the results depend on the processing

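With 1 library per group no replicate could be left out. No paired analysis was possible because each group has 1 library. The 16 ratios of the 7 genes kept their value within the counting interval in most alternatives. Exceptions in luminal-like cells were Cd44 at 1.51 (Leiden resolution 2), 1.05 (libraries clustered apart), 1.10 (luminal keratin gate) and 0.726, reversed, with cluster 7 counted as luminal, and Has2 at 1.97 (apart) and 3.22 (with cluster 7). In suprabasal cells Cd44 was 0.665 (stricter cell filter), 0.631 (no doublet removal), 0.735 (apart) and 1.14 (without cluster 9), and Has3 was 3.84 without doublet removal. Cd44 was 0.866 in macrophage-like cells (apart), and in basal cells 0.819 with another scaling and 0.828 as a mean over cells. The gate, cluster 7, cluster 9, cluster 11 and 500-UMI alternatives were chosen after seeing the data.

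The list counts moved more. Without doublet removal suprabasal cells had 7 list genes higher and 1 lower, macrophage-like cells 9 lower, fibroblast-like cells 0 lower and neutrophil-like cells 2 lower. With the libraries clustered apart suprabasal cells had 1 higher and 5 lower, luminal-like cells 4 lower, fibroblast-like cells 0 lower and neutrophil-like cells 2 lower. At Leiden resolution 2 the lower counts were 4 in luminal-like, 0 in fibroblast-like and 2 in neutrophil-like cells. The stricter filter gave 0 and 0 in fibroblast-like cells and left no neutrophil-like class. Without the low-count filter luminal-like cells had 2 lower and macrophage-like cells 1 higher. The cause was not tested in any of these. A mean over cells gives no list count, since it has no counting interval. Of 12 levels, 8 moved past their interval with the other scaling. Of 12 shares of cells, 6 moved at 1000, 7 at 4000 and 9 at 500 UMIs instead of 2000.

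The other scaling, without 119 abundant, mitochondrial and ribosomal protein genes, moved the median log2 ratio of all genes up by 0.20 in basal, 0.13 in suprabasal and fibroblast-like and 0.12 in luminal-like cells. The share of higher among all calls went from 54.8 to 71.7% in basal, 63.4 to 73.9% in suprabasal, 59.3 to 70.3% in luminal-like and 34.4 to 57.4% in fibroblast-like cells. Depth limits the control luminal values, with 740574 UMIs in the class, and fibroblast-like cells, with 89620.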
